A study of Mus musculus with 84 samples.

Results

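The 31 genes described here are expressed in the oligodendrocyte lineage, the cells that make myelin in the brain. They were picked by gene symbol from the 43629 genes of the deposited count table. Each symbol occurred once. They comprise 19 genes of mature myelin, 6 transcription factors of the lineage, 4 genes of newly formed oligodendrocytes and 2 genes of precursor cells.

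Oligodendrocytes wrap axons in a compacted membrane that speeds conduction and supplies the axon with metabolites. Their precursors, which carry the platelet-derived growth factor receptor and the NG2 proteoglycan, divide throughout adult life and pass through a brief newly formed stage before they switch on the genes of the sheath. In the amygdala and its surroundings, myelin is dense in fibre tracts such as the stria terminalis and the external capsule and sparser among the neurons of the nuclei.

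Brains came from 84 mice of the HS-CC population, an outbred stock founded on Collaborative Cross strains, and RNA was sequenced from 1 dissected region, the central amygdala (CeA), whose neurons are mostly inhibitory. The 43 females and 41 males had a median age of 15 weeks when preference testing began. All of them drank: after a period with 5% and then 10% ethanol, each mouse chose between water and 10% ethanol for 13 weeks, and ethanol stayed available until euthanasia, which took place in 4 passes after 90 to 93 days. No ethanol-naive group is part of the design, so expression can be set against how much ethanol an animal chose, not against its absence. The preference ratio divides the millilitres of ethanol solution by all millilitres taken in, and its mean over the 13 weeks ran from 0.0435 to 0.759 in females (median 0.229) and from 0.0262 to 0.713 in males (median 0.153). Up to 3 animals came from 1 family, which is not given per animal in the sources used here, so the animals were not fully independent.

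The nucleus was cut out by laser from both sides of thionin-stained sections, and each animal gave 1 library with 24118965 to 42036566 counts (median 31573088.5). No library was a copy of another: over 3486 pairs of libraries the lowest chi-square per gene was 19.1. Sample titles carry sheet numbers that form 4 ascending runs of 18, 18, 17 and 31 animals, a possible batch that is not explained in the labels. The 6 marker genes of the CeA (Prkcd, Sst, Crh, Tac2, Nts and Dlk1) had counts in every library and a summed level of 299 to 935 CPM, counts scaled to a fixed library total. Slc17a7, the glutamate transporter gene of cortical and basolateral amygdala neurons, had 13.0 CPM in its lowest library and a median of 1359 CPM, so the libraries also held RNA of a gene that marks neurons outside the CeA.

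The promoters of 4 genes of mature myelin, Mog, Mag, Cnp and Opalin, are shown, with that of the precursor gene Pdgfra. Over the animals, the r of these 4 with the mean of the other mature genes was 0.985, 0.978, 0.985 and 0.855. Other mature genes with values above that of Opalin are not shown. Pdgfra had r = -0.111 with the mean of the mature genes. Each stretch runs 5′ to 3′ on the strand of its gene, from 250 bases before to 50 bases after the start in RefSeq (build GRCm38.p6). Mog lies on the minus strand at chr17:37023349-37023648, Mag on the minus strand at chr7:30914814-30915113, Cnp on the plus strand at chr11:100574689-100574988, Opalin on the minus strand at chr19:41077064-41077363 and Pdgfra on the plus strand at chr5:75152001-75152300. For Mag, which has 3 entries, the first is given. Capitals mark matches to the words CTGGCAC and CTGGTAC, bound by the myelin regulatory factor MYRF, and to the words ACAAAG and ACAATG, bound by factors of the SOX family, on either strand.
Mog: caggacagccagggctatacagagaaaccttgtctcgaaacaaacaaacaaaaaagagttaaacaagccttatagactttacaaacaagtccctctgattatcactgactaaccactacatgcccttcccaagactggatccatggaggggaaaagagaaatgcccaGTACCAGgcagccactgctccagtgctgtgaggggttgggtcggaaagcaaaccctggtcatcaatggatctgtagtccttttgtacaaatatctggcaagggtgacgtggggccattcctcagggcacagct
Mag: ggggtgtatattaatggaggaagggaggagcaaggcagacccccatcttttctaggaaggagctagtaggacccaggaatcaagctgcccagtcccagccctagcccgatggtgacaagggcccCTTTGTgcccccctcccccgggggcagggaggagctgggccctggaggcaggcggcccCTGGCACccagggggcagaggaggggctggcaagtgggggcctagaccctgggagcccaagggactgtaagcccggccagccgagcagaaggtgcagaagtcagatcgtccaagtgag
Cnp: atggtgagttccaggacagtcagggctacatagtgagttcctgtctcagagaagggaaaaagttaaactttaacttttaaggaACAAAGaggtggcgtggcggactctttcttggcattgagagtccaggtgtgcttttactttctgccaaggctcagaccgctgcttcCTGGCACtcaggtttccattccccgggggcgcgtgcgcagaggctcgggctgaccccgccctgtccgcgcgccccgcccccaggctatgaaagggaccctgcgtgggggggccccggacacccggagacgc
Opalin: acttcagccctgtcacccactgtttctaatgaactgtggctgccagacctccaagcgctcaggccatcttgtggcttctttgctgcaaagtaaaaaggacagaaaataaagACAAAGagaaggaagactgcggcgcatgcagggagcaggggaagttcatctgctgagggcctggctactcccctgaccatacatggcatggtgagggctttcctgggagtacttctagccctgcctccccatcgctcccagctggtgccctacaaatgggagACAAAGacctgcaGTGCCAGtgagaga
Pdgfra: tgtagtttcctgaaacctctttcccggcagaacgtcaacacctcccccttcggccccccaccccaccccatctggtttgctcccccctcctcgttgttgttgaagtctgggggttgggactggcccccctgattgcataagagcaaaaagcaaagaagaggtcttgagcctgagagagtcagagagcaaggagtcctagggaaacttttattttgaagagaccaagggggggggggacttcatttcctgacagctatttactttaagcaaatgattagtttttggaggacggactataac
The MYRF word lay on the minus strand in Mog and Opalin and on the plus strand in Mag and Cnp. Of the 22 genes with an entry, 5 of 15 genes of mature myelin (those 4 and Hapln2) and 0 of the 7 others held such a word. In the same window, 8.10% of 27025 genes held one. The 4 mature promoters shown thus all held the word and do not stand for the 15. A SOX word was present in 10 of 22 genes, against 31.7% of all genes, and the E-box word CAGCTG in 4 of 22, against 18.3%. No 2 of the marked matches overlap. A match is a description of the letters and does not show that a factor binds there.

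Mbp, which encodes myelin basic protein, the protein that compacts the sheath, was the most abundant of the 31 genes. It had 429 CPM in the lowest library, a median of 1691 CPM and 11016 CPM in the highest, a 25.7-fold range between animals. Per kilobase of exon, its median was 201 CPM, above Car2 (72.8), Mobp (67.7), Cnp (60.4) and Olig1 (52.2), and Enpp6 was last with 0.575. All 31 genes passed the filter on low counts, under which 16320 genes were tested. Together they took 0.125% to 2.04% of the counts of a library, with a median of 0.360%.

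Several other structural genes of the sheath had ranges at least as wide as that of Mbp. Mog, the gene of a glycoprotein on the outer face of myelin (chromosome 17, 37010743 to 37023398 on GRCm38), had 6.51 to 193.4 CPM with a median of 33.8 CPM, a 29.7-fold range. Mobp, a gene of another basic protein of compact myelin, had 74.3 to 2674 CPM (median 439 CPM), and Mag, which encodes an adhesion protein that faces the axon, 20.6 to 720 CPM (median 96.1 CPM). Opalin, which encodes a membrane glycoprotein of oligodendrocytes, had the widest range of all, 45.3-fold, from 0.780 to 35.3 CPM. Narrower ranges among the 19 were those of Car2, a carbonic anhydrase gene (6.31-fold), Gsn, the gene of the actin-severing protein gelsolin (7.13-fold), and Gjc3, which encodes a connexin of gap junctions (7.63-fold). Both Car2 and Gsn are also expressed by other cells of the brain.

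The SD of log2 CPM over animals put numbers on this spread. It had a median of 0.94 over the 19 genes of mature myelin and ran from 0.45 for Car2 to 1.07 for Mobp, against a median of 0.32 over all 16320 genes tested. The genes of myelin lipids lay inside that range, with 0.76 for Ugt8a, which encodes the enzyme that makes galactosylceramide, and 0.82 for Fa2h, which encodes the hydroxylase of its fatty acids. Cnp, a gene of an enzyme of non-compact myelin, had an SD of 0.78, Cldn11, of its tight junctions, 0.86, and Mal, of a proteolipid, 0.89. Aspa, which encodes the enzyme that splits N-acetylaspartate, had 0.84, Ermn, of the cytoskeletal protein ermin, 0.95, Tmem88b 0.94 and Hapln2, of a link protein at nodes of Ranvier, 1.03. Ppp1r14a, the gene of a phosphatase inhibitor, had 0.99, and Trf, the transferrin gene, 1.01. The Trf value is uncertain, because 63.5% of its exon bases also belong to Gm20425 on the same strand and reads there could be lost in counting. Cnp, Ermn, Nkx6-2, Bcas1 and Gpr17 overlap a gene on the opposite strand over 3.62% to 12.9% of their exon bases, and whether counting used strand is not given, so reads there are uncertain too.

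Genes of precursors spread far less. Pdgfra (chromosome 5, 75152291 to 75198204), the receptor gene that defines the precursors, had 28.5 CPM in the lowest library, a median of 64.1 CPM and 95.3 CPM in the highest, a 3.35-fold range. Cspg4, which encodes NG2, had 13.6 to 43.3 CPM with a median of 24.9 CPM. Their SDs of 0.27 each lay below the median of all genes, so the wide spread of the myelin genes did not extend to the precursors. Pdgfra is also expressed by leptomeningeal fibroblasts and Cspg4 by pericytes, in the background of such tissue.

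Lineage factors and newly formed genes fell on either side. Myrf, the factor that switches on myelin genes, spread like its targets, with 9.97 to 202.5 CPM (median 35.9 CPM, SD 0.85), and so did Nkx6-2, a homeobox gene of maturing oligodendrocytes (2.50 to 55.6 CPM, SD 0.99). Olig1 (chromosome 16, 91269772 to 91271933), expressed at all stages of the lineage, had 80.5 to 292 CPM with a median of 113 CPM and an SD of 0.33, close to the 0.35 of its neighbour Olig2. Sox10, which acts throughout the lineage, had an SD of 0.48 and its relative Sox8 one of 0.25. Among newly formed genes, Bcas1, of early myelinating cells, had 26.2 to 430 CPM (SD 0.88), and Enpp6, which encodes a choline-specific phosphodiesterase, 0.950 to 13.3 CPM (SD 0.75). Tcf7l2, of a Wnt pathway factor that thalamic neurons also express, had 3.59 to 31.6 CPM (SD 0.68). Gpr17, the gene of a receptor of committed precursors, stayed within 36.4 to 105 CPM (SD 0.31).

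**Figure D1:**
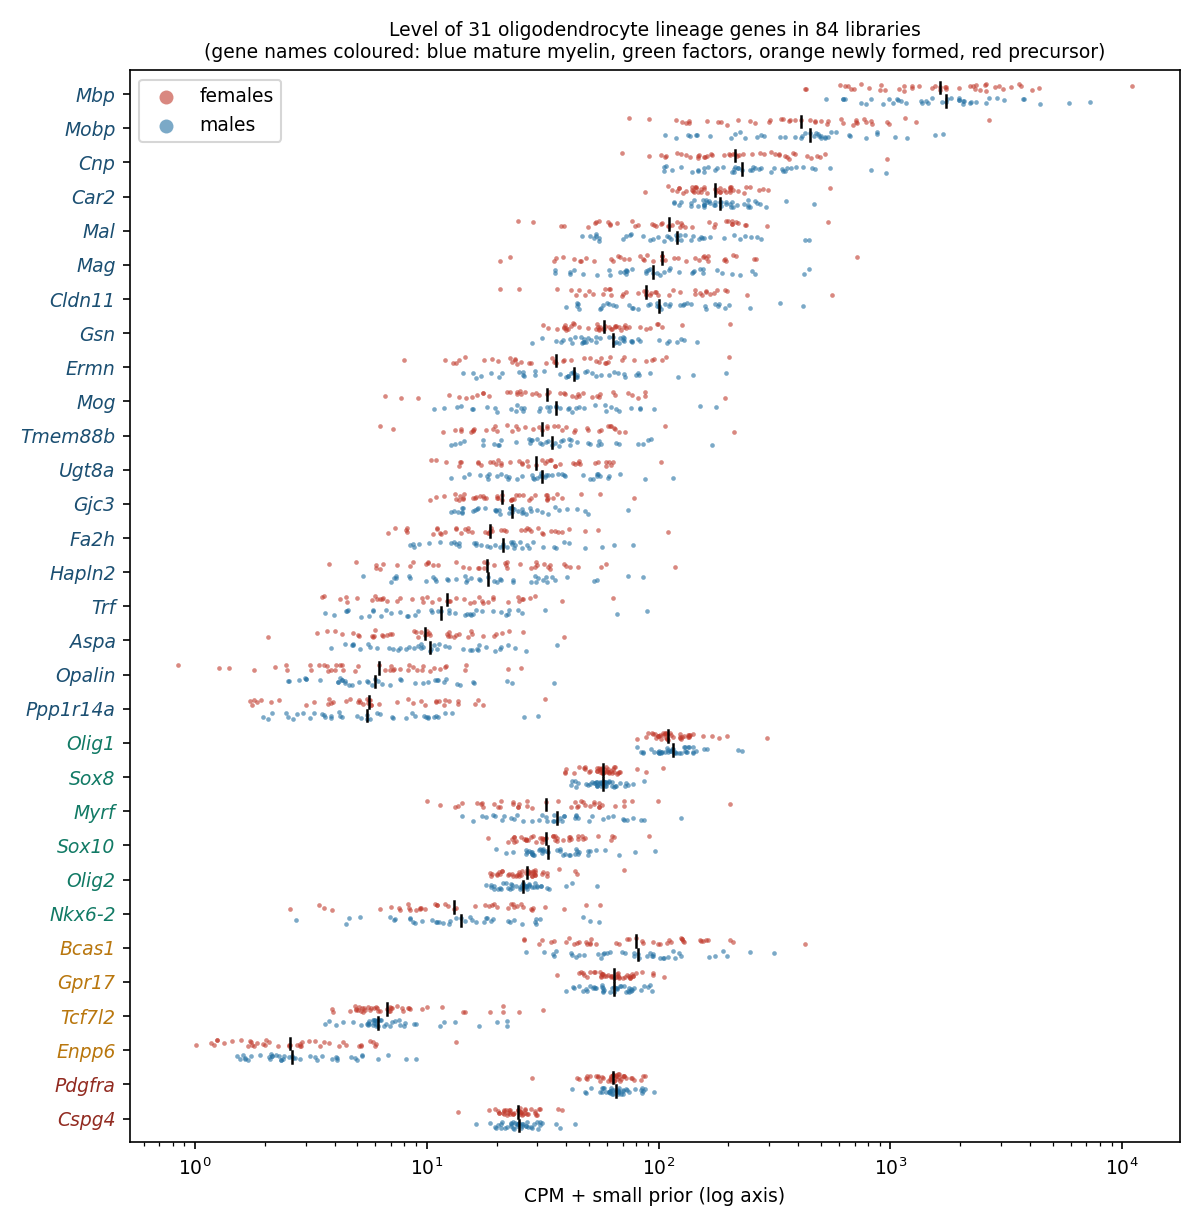
Level of each of the 31 genes in 84 libraries, as CPM with a small prior on a log axis. Each point is 1 animal, females above males in each row, and black bars are medians. Genes of mature myelin such as Mbp and Mog spread over more than an order of magnitude, while Pdgfra and Cspg4 stayed within 3.35-fold and 3.19-fold ranges.

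Over the 84 animals the genes of mature myelin moved together. Mbp and Mog had a Pearson r of 0.976 (permutation p = 1e-05, adjusted 1.32e-05) and a Spearman rho of 0.976 (p = 1e-05, adjusted 1.33e-05), where 1e-05 is the smallest p that 100000 resamples can give and adjustment ran over 465 pairs of the 31 genes. Their r was 0.972 without the 2 animals farthest from the median of Mbp, and 0.954, 0.953, 0.989 and 0.978 within the 4 runs. Animals high in Mog were high in Mbp, within each run as over all. The 3 highest of all pairs were Mbp with Mobp (r = 0.987, rho = 0.986), Mog with Cnp (r = 0.984, rho = 0.986) and Mbp with Bcas1 (r = 0.983, rho = 0.979), each with p = 1e-05 and, without the 2 farthest animals, r of 0.986, 0.982 and 0.979. Within the runs their r ranged from 0.979 to 0.993, from 0.978 to 0.991 and from 0.976 to 0.987.

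The median r of the 171 pairs within mature myelin was 0.901, with a range of 0.548 to 0.987. A value of at least 0.8 was reached by 137 of the 171 pairs, or 80.1%, against 0.116% of all pairs of tested genes, whose median r was -0.002. Set against the mean of the other mature genes, Mbp, Mog and Cnp each had r = 0.985, and the lowest values were those of Gsn (0.732), Car2 (0.823) and Opalin (0.855). The first principal component of the 31 genes held 73.8% of their variance and the second 8.79%. These values describe animals that share library steps, and for depth the values were these: Mog had r = -0.098 with the log2 total count (permutation p = 0.375, rho = -0.051, p = 0.646), -0.040 without the 2 farthest animals and -0.131, -0.262, -0.340 and -0.010 within the runs.

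Genes earlier in the lineage followed mature myelin to very different degrees. Bcas1 (r = 0.9748 with the mean of the mature genes), Myrf (0.925), Sox10 (0.903) and Enpp6 (0.883) moved with it nearly as its own members did. Nkx6-2 (0.822), Tcf7l2 (0.764), Olig1 (0.742) and Olig2 (0.690) followed less closely. Sox8 (0.317) and Gpr17 (0.256) followed little, and Cspg4 (-0.048) and Pdgfra (-0.111) had values near 0. So the 4 newly formed genes were not alike: Bcas1 and Enpp6 moved with the sheath, and Gpr17 moved more with Olig2 (r = 0.502, rho = 0.491, permutation p = 1e-05 each, adjusted 1.32e-05 and 1.33e-05; 0.439 without the 2 farthest animals; 0.329, 0.611, 0.525 and 0.515 within the runs).

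The genes of mature myelin and of precursors had pairwise r near 0. The median r of the 38 pairs was -0.072, with a range of -0.258 to 0.078, while Pdgfra and Cspg4 had r = 0.725 with each other (rho = 0.623, permutation p = 1e-05 each, adjusted 1.32e-05 and 1.33e-05; 0.661 without the 2 farthest animals; 0.734, 0.702, 0.730 and 0.718 within the runs). Mog and Pdgfra had r = -0.160 (permutation p = 0.145, adjusted 0.162) and rho = -0.178 (p = 0.106, adjusted 0.123), with -0.224 without the 2 farthest animals and -0.538, 0.131, -0.116 and -0.155 within the runs. The 3 lowest of all pairs were Ppp1r14a with Pdgfra (r = -0.258, p = 0.0174, adjusted 0.0205; rho = -0.277, p = 0.0107, adjusted 0.0136), Trf with Pdgfra (r = -0.253, p = 0.0208, adjusted 0.0243; rho = -0.257, p = 0.0186, adjusted 0.0231) and Mobp with Pdgfra (r = -0.198, p = 0.0714, adjusted 0.0804; rho = -0.175, p = 0.11, adjusted 0.126). Without the 2 farthest animals these were -0.330, -0.310 and -0.249, and within the runs they ranged from -0.532 to -0.0745, from -0.417 to -0.134 and from -0.354 to -0.130.

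Gpr17 was also set against a gene of mature myelin and one of precursors. Its r was 0.203 with Mog (permutation p = 0.0640, adjusted 0.0723; rho = 0.129, p = 0.244, adjusted 0.267), 0.109 without the 2 farthest animals and 0.237, 0.263, 0.341 and 0.186 within the runs. With Pdgfra it was 0.355 (permutation p = 0.00083, adjusted 0.00106; rho = 0.363, p = 0.00074, adjusted 0.000972), 0.359 without the 2 farthest animals and 0.00769, 0.519, 0.272 and 0.358 within the runs, differences between runs that were not tested. Of all 465 pairs, 408 passed an adjusted Pearson threshold of 0.05 and 385 a Spearman one, and 432 had a positive r.

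**Figure D2:**
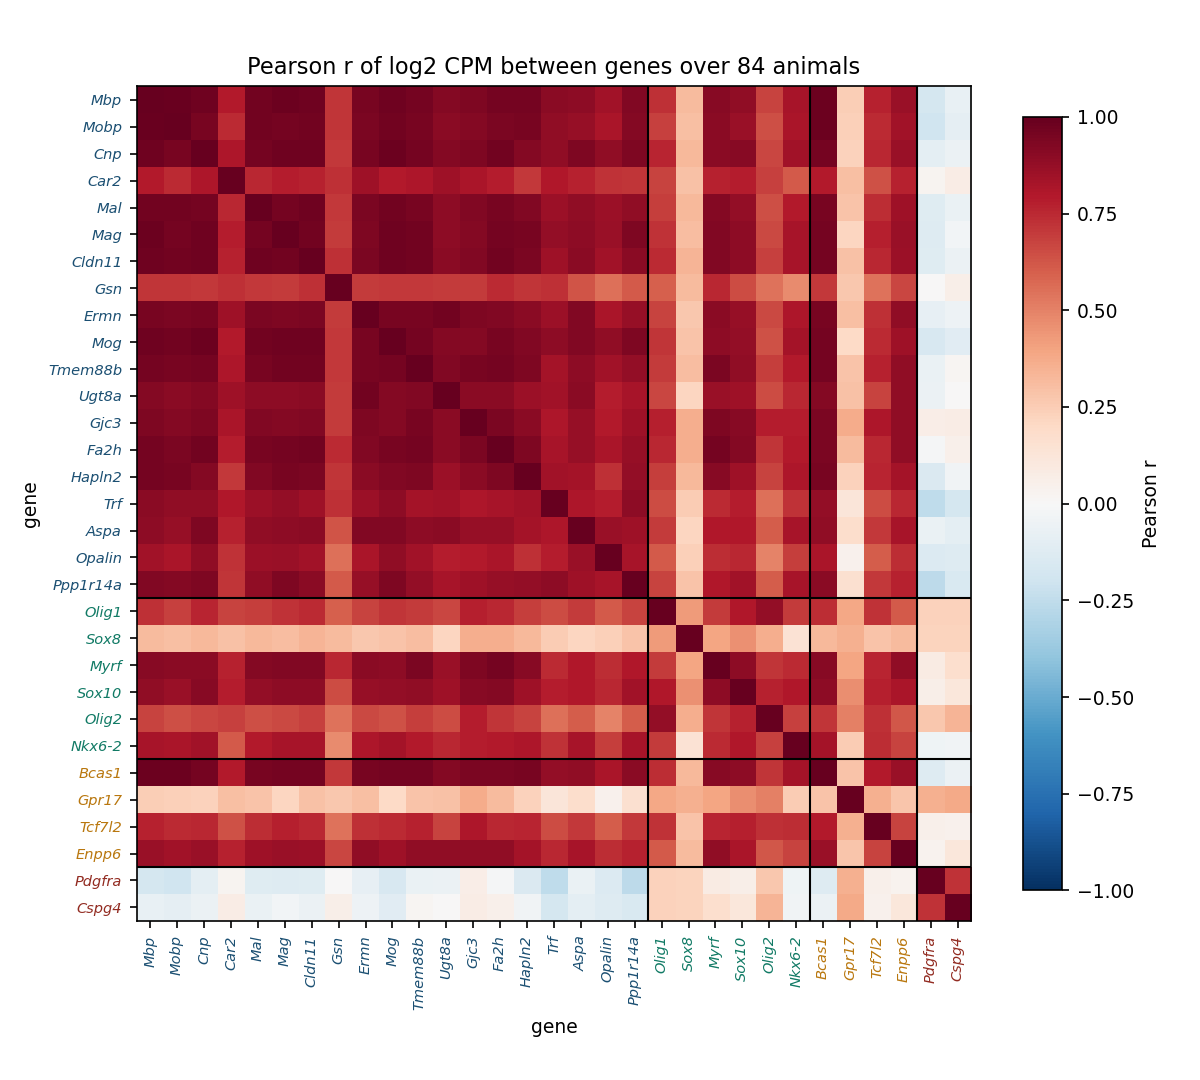
Pearson r between every pair of the 31 genes over 84 animals, from -1 (blue) to 1 (red), with black lines between mature myelin, lineage factors, newly formed and precursor genes. The block of mature myelin is dark red (median 0.901), Gpr17 and Sox8 form pale stripes, and the precursor columns are near white against myelin (median -0.072).

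Genes outside the 31 showed the same pattern or its opposite. Of those named here, Gjb1, Plekhb1 and Sept4 are in the list of further myelinating genes below, and the others are in no list. By mean r with the 19 mature genes, those at the high end included Gjb1, of another connexin (0.912), Ttyh2 (0.908), Plekhb1 (0.905), Tmem63a (0.904), Prr18 (0.898), S1pr5, of a sphingosine phosphate receptor (0.896), Prr5l (0.895), Sept4, of a septin (0.895), and Pde8a (0.894). At the other end were Dlg3, of a synaptic scaffold (-0.791), Hrk (-0.781), Lhx2 (-0.779), Brinp2 (-0.777) and Lppr2 (-0.773). These are ranks in these 84 animals, with no test.

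In a list of 29 further genes of myelinating cells, the median of that mean r was 0.834 and 29 of 29 lay above 0, with Efnb3 lowest (0.127). A list of 17 measured further genes of precursors and newly formed cells had a median of 0.115, with 10 of 17 above 0, from Rras2 (-0.609) to Neu4 (0.532). Most genes in a list of cholesterol and myelin lipid synthesis did not follow myelin: their median was -0.146, with 3 of 19 above 0. Elovl1, an elongase of very long fatty acids, was highest (0.830). Ugt8a and Fa2h, the myelin lipid genes among the 31, had r of 0.935 and 0.963 with the mean of the other mature genes.

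Markers of other cells were related to the myelin genes too, some of them in the opposite direction. Mog and Slc17a7 had r = -0.687 (rho = -0.692, permutation p = 1e-05 each, adjusted over 434 pairs 9.86e-05 and 0.000106), -0.620 without the 2 farthest animals and -0.617, -0.760, -0.799 and -0.592 within the runs. Over the 19 mature genes the r with Slc17a7 ran from -0.764 to -0.509 and passed for 19 of 19. Snap25, a gene of all neurons, had a median r of -0.326 (18 of 19 passed), Cldn5, of blood vessel endothelium, 0.428 (18), Aldh1l1, of astrocytes, 0.387 (17), Prkcd, of CeA neurons, 0.371 (19), Ppp1r1b, of striatal neurons, 0.346 (17), and C1qa, of microglia, 0.340 (15). Few mature genes passed against Cx3cr1 (3), Foxj1 (2), Ttr (1), Slc17a6 (1), Sst (1), Aqp4 (0) and Col1a2 (0).

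Whole marker lists were read in the same way. The mean r with the 19 mature genes lay below 0 for 5 of 5 cortical and basolateral excitatory genes (median -0.484) and above 0 for 5 of 5 striatal genes (median 0.459), 5 of 6 CeA genes (0.367), 3 of 3 thalamic and hypothalamic genes (0.336), 6 of 6 endothelial and mural genes (0.317), 6 of 6 microglia genes (0.278) and 5 of 6 astrocyte genes (0.260). Neuron genes had a median of -0.344 with 2 of 6 above 0, choroid plexus and ependymal genes -0.030 with 1 of 6, and leptomeningeal genes -0.051 with 1 of 4. Pdgfra and Cspg4 had r of -0.159 and -0.080 with Slc17a7 and of -0.480 and -0.484 with Snap25. In bulk tissue, more oligodendrocytes in a sample and more RNA per oligodendrocyte cannot be told apart, and the part of the dissected area in these relations was not tested.

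**Figure D3:**
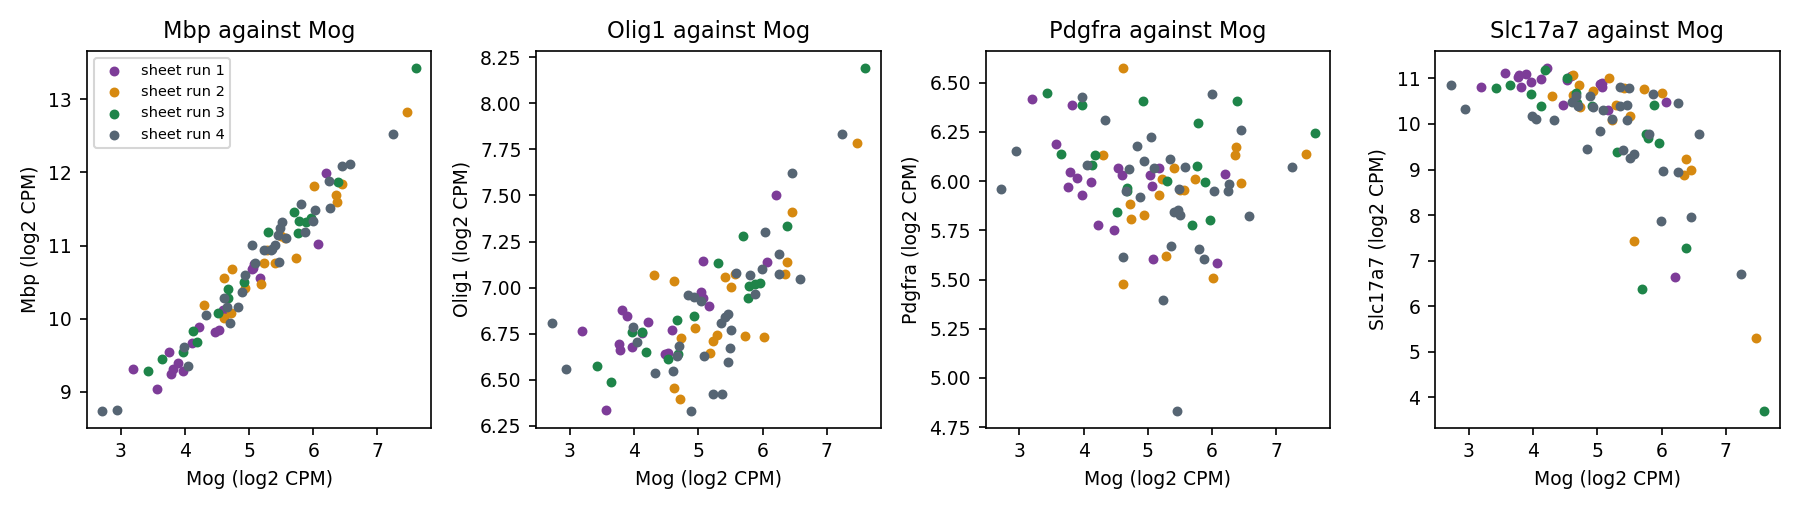
Log2 CPM of Mbp, Olig1, Pdgfra and Slc17a7 against Mog in 84 animals, coloured by run of sheet numbers. Mbp lies on a line with Mog (r = 0.976), Olig1 rises at high Mog (r = 0.716), Pdgfra shows no trend (r = -0.160) and Slc17a7 drops at high Mog (r = -0.687).

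Libraries were ranked by the mean standardized level of the 19 mature genes. Female replicate 19 was highest, with 11016 CPM of Mbp, 193.4 CPM of Mog and 292 CPM of Olig1, and held 13.0 CPM of Slc17a7 and 866 CPM of Ppp1r1b, against medians of 1359 and 319 CPM. Male replicate 15 was next, with 7223 CPM of Mbp, 176.5 CPM of Mog, 39.2 CPM of Slc17a7 and 50.7 CPM of Ppp1r1b. Their Pdgfra, at 75.7 and 70.3 CPM, lay close to the median of 64.1 CPM. Male replicate 35 followed with 5895 CPM of Mbp, 104 CPM of Slc17a7 and 7156 CPM of Ttr, the choroid plexus gene, whose median was 55.9 CPM. The lowest by the same mean was female replicate 37, with 429 CPM of Mbp, 6.51 CPM of Mog and 1848 CPM of Slc17a7, followed by female replicates 40 (431 CPM of Mbp) and 9 (639 CPM of Mbp). Ttr was high at this end as well, with 5597, 1095 and 59.8 CPM in female replicates 37, 40 and 9. Female replicate 19 and male replicate 15 had 11.2 and 2.90 CPM of Ttr. Mean preference at the low end was 0.510, 0.148 and 0.193 in female replicates 37, 40 and 9. At the high end it was 0.0949 in female replicate 19, 0.248 in male replicate 15 and 0.0502 in male replicate 35.

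Mean preference over the 13 weeks was set against expression to ask whether myelin genes go with chronic drinking. Among the 21 animals of highest mean preference (0.362 to 0.759), Mbp had 429 to 4420 CPM with a median of 1455 CPM, and among the 21 of lowest preference (0.0262 to 0.115) 529 to 11016 CPM with a median of 1737 CPM. Pdgfra had 45.4 to 84.9 CPM (median 62.2 CPM) in the high group and 53.8 to 95.3 CPM (median 66.7 CPM) in the low group. Olig1 had 80.5 to 197 CPM (median 109 CPM) in the high group and 80.7 to 292 CPM (median 123 CPM) in the low group. The ranges of the groups overlapped for all 3 genes. The lowest library of Pdgfra, at 28.5 CPM, was in neither group.

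Over all 84 animals with sex as a term, 0 of 31 genes passed in edgeR (background 0.0% of 16320 genes), and 0 had an unadjusted p under 0.05 (background 3.94%). DESeq2 and limma-voom also called 0 and had 0 at an unadjusted p under 0.05. Each slope gives the log2 change that goes with a preference ratio higher by 0.5. The 3 genes of smallest p were Olig1 (-0.17 ± 0.11 SE, p = 0.146), Pdgfra (-0.13 ± 0.09, p = 0.154) and Olig2 (-0.15 ± 0.12, p = 0.205), each with an edgeR adjusted p of 1.00. Mbp had a slope of -0.16 ± 0.31 with a 95% interval of -0.77 to 0.44, and Cspg4 one of 0.01 with an interval of -0.17 to 0.19. The interval of the precursor gene was the narrower, and for Mbp any slope within its interval, in either direction, was not told from 0 here.

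By class, slopes lay below 0 for 16 of 19 mature genes (median -0.12), 6 of 6 lineage factors (-0.13), 3 of 4 newly formed genes (-0.10) and 1 of 2 precursor genes. That is 26 of 31 genes, against 50.8% of all genes, but members that vary together are not separate results. Without the 2 libraries most extreme in myelin, female replicate 19 and male replicate 15, 13 of 31 slopes lay below 0 and Mbp had a slope of 0.05. With all libraries, limma-voom also gave 13 of 31. The count was 29 with run as a covariate, 30 without the 2 most extreme drinkers, 30 with rank of preference and 29 with mean intake. Within runs 1 to 4, 21, 29, 27 and 3 of 31 slopes lay below 0, with medians of -0.09, -0.31, -1.44 and 0.23.

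In females alone, 0 of 31 genes passed (background 0.0%), with 0 at an unadjusted p under 0.05 (background 6.95%) in edgeR, DESeq2 and limma-voom. The 3 of smallest p were Tcf7l2 (-0.66 ± 0.35, p = 0.0627, edgeR adjusted 0.772), Gpr17 (-0.23 ± 0.14, p = 0.0964, adjusted 0.856) and Sox8 (-0.20 ± 0.12, p = 0.105, adjusted 0.865). Slopes lay below 0 for 29 of 31 genes, against 48.4% of all genes, and for 11 of 31 without the 2 female libraries most extreme in myelin, replicates 19 and 37. Mbp had a slope of -0.52 ± 0.43 in all females and of 0.03 without these 2. The count below 0 was 24 in limma-voom, 28 with run as a covariate and 30 without the 2 most extreme drinkers. It was 30 with rank of preference and 29 with mean intake, where 3 of 31 genes had an unadjusted p under 0.05 in edgeR.

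In males, 0 of 31 genes passed (background 0.0%) and 0 had an unadjusted p under 0.05 (background 1.65%) with all 3 tools. Pdgfra (-0.17 ± 0.13, p = 0.182), Ermn (0.42 ± 0.44, p = 0.352) and Ugt8a (0.35 ± 0.38, p = 0.361) had the smallest p, each with an edgeR adjusted p of 1.00. Slopes lay below 0 for 7 of 31 genes, against 49.0% of all genes, and for 16 of 31 without the 2 animals most extreme in drinking. The count was 17 with rank of preference, 9 with mean intake, 6 with run as a covariate and 5 without the 2 most extreme libraries.

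Whether the slope differed between the sexes was tested with its own term. The female slope minus the male slope passed for 0 of 31 genes (background 0.0%), with 0 at an unadjusted p under 0.05 (background 3.24%) in edgeR, DESeq2 and limma-voom. Tcf7l2 (-0.83 ± 0.48, p = 0.0862), Gpr17 (-0.37 ± 0.21, p = 0.0897) and Cspg4 (0.26 ± 0.18, p = 0.163) had the smallest p, each with an edgeR adjusted p of 0.999. The difference lay below 0 for 26 of 31 genes (background 46.1%). For Mbp the difference was -0.79 with an interval of -2.005 to 0.43, wide enough to hold equal slopes and a large difference alike.

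**Figure D4:**
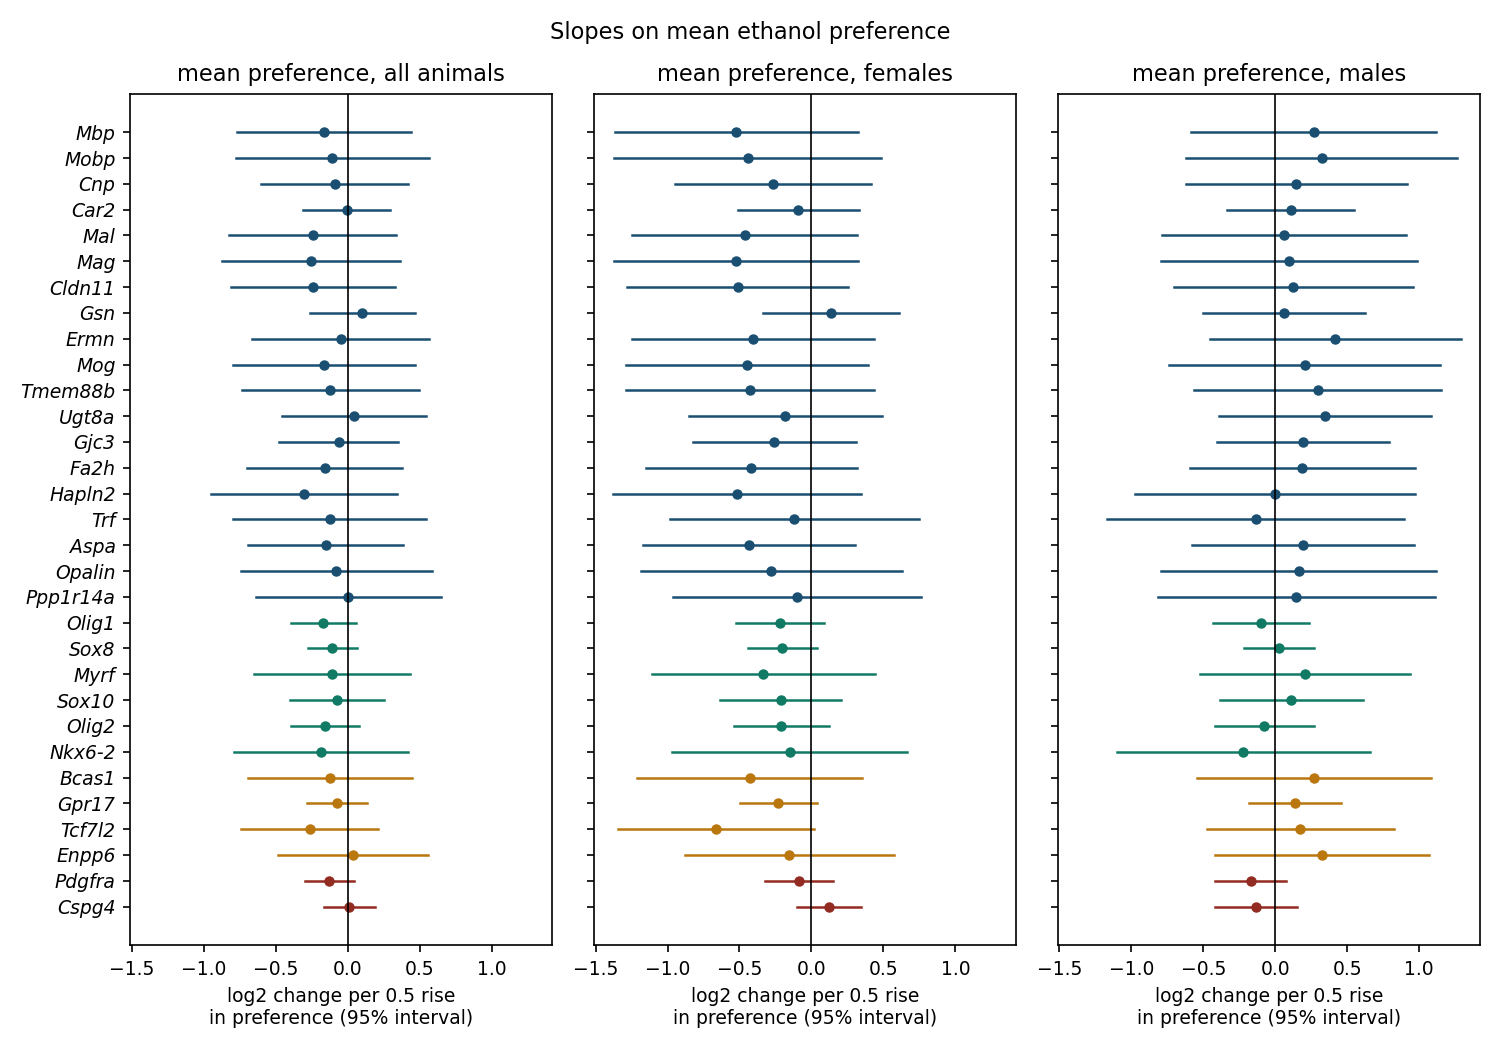
Slope on mean preference of each of the 31 genes, as the log2 change per 0.5 rise with its 95% interval, in all animals, females and males, coloured by class as in the plot of levels. All 93 intervals include 0; in all animals intervals of mature myelin genes such as Mbp (-0.77 to 0.44) are wide and those of Cspg4 (-0.17 to 0.19) narrow.

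Week 1 preference, from the first of the 13 weeks of choice, had no called myelin gene either. In all animals 0 of 31 passed (background 0.0306%), as in females (background 0.0%) and males (background 0.0368%). At an unadjusted p under 0.05 there were 0 in all animals (background 3.25%), 0 in females (2.26%) and 0 in males (5.17%), in edgeR, DESeq2 and limma-voom alike. The smallest p in all animals belonged to Hapln2 (-0.40 ± 0.32, p = 0.213), Pdgfra (-0.10 ± 0.08, p = 0.220) and Olig1 (-0.13 ± 0.11, p = 0.239), with an edgeR adjusted p of 1.00 each. Slopes lay below 0 for 27 of 31 genes in all animals (background 48.9%), 26 in females (47.9%) and 25 in males (50.0%). Without the 2 libraries most extreme in myelin among the animals of each fit, the counts were 10, 6 and 8 of 31, and limma-voom with all libraries gave 22, 12 and 25. With run as a covariate the counts were 22, 10 and 22, and with rank of preference 30, 30 and 29. In females the genes of smallest p were Olig2 (-0.15 ± 0.18, p = 0.400), Pdgfra (-0.10 ± 0.12, p = 0.414) and Aspa (-0.30 ± 0.40, p = 0.449), and in males Hapln2 (-0.48 ± 0.42, p = 0.261), Cspg4 (-0.14 ± 0.12, p = 0.268) and Gsn (-0.26 ± 0.25, p = 0.294), with edgeR adjusted p-values of 0.953 to 1.00.

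Week 13 preference, close to dissection, gave the only unadjusted p-values under 0.05 among the main edgeR fits on preference, those without any alternative setting. Under alternative settings, up to 3 of 31 genes had such a p for mean preference and up to 2 for week 1 preference in males. In all animals 0 of 31 passed (background 0.0%), and 1, Tcf7l2, had an unadjusted p under 0.05 (background 6.0%), with a slope of -0.45 ± 0.19 (p = 0.0201, edgeR adjusted 0.683). By mean preference, Tcf7l2 had 3.86 to 21.3 CPM (median 5.89 CPM) in the 21 highest animals and 3.59 to 21.2 CPM (median 6.85 CPM) in the 21 lowest, ranges that overlapped almost fully. Its unadjusted p was 0.0919 with run as a covariate (slope -0.35), 0.0719 in limma-voom (-0.34), 0.0565 without the 2 libraries most extreme in myelin (-0.36) and 0.0176 in DESeq2 (-0.46). Tcf7l2 also had r = -0.785 with Slc17a7 (rho = -0.724, permutation p = 1e-05 each, adjusted 9.86e-05 and 0.000106; -0.742 without the 2 farthest animals), and its slope on mean preference was -0.39, -1.07, -1.53 and 0.70 within the 4 runs.

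In males 0 of 31 passed for week 13 (background 0.0%), and 1, Pdgfra, had an unadjusted p under 0.05 (background 3.74%), with a slope of -0.21 ± 0.09 (p = 0.0316, edgeR adjusted 0.984). Its p was 0.0307 in DESeq2, 0.0269 in limma-voom and 0.0596 with the rank of preference. Without the 2 males most extreme in drinking, 0 of 31 genes had an unadjusted p under 0.05. In females 0 of 31 passed (background 0.0368%), with 0 at an unadjusted p under 0.05 (background 8.67%) in edgeR, DESeq2 and limma-voom. Tcf7l2 (-0.46 ± 0.27, p = 0.0883, adjusted 0.733), Sox8 (-0.16 ± 0.10, p = 0.0962, adjusted 0.753) and Mag (-0.53 ± 0.34, p = 0.122, adjusted 0.807) were first there. Slopes lay below 0 for 30 of 31 genes in all animals (background 50.3%), 28 in females (50.5%) and 23 in males (50.7%), and for 16, 4 and 6 without the 2 libraries most extreme in myelin among the animals of each fit, which in males were replicates 15 and 35. With run as a covariate the counts were 27, 28 and 14, and limma-voom with all libraries gave 27, 27 and 16.

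A correlation of log2 CPM with preference gave the same picture of no call, in a family of 93 relations. With mean preference Pearson's r ran from -0.182 to 0.088 over the 31 genes, and 0 had an unadjusted permutation p under 0.05 (1 by Spearman, Pdgfra, rho = -0.218, p = 0.0448, adjusted 0.97). Pdgfra had r = -0.182 (p = 0.0964, adjusted 0.992) and -0.112, -0.330, 0.135 and -0.110 within the runs. Its r was -0.213 without the 2 animals farthest from the median of mean preference. For Mbp r was -0.00157 (permutation p = 0.989, adjusted 0.992; rho = -0.020, p = 0.853, adjusted 0.97), with -0.060 without the same 2 animals and 0.090, -0.110, -0.349 and 0.040 within the runs.

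Lists of related genes were read against the same fits, and 0 genes of the lists passed over all genes for any preference measure, for the sex term or for sex. Of the 29 further myelinating genes, 24 had slopes on mean preference below 0 in all animals (median -0.09; background 50.8% of all genes) and 0 had an unadjusted p under 0.05. Of the 17 further precursor and newly formed genes, 11 lay below 0 (median -0.03). For cholesterol and myelin lipid synthesis 2 of 19 lay below 0 (median 0.02), and Lss, which encodes lanosterol synthase, had a slope of 0.18 ± 0.09 (p = 0.0472, edgeR adjusted 1.00). With week 1 preference, 4 of those 19 had an unadjusted p under 0.05 (background 3.25% of all genes), all above 0, among them Sc5d (0.19), Hmgcs1 (0.25) and Mvd (0.19), each with an edgeR adjusted p of 1.00. Matn4, an extracellular matrix gene of precursors, had -0.28 ± 0.08 in that fit (p = 0.000376, adjusted 0.558).

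Females and males did not differ in any of the 31 genes beyond the threshold. Mbp had 429 to 11016 CPM in females (median 1638 CPM) and 529 to 7223 CPM in males (median 1737 CPM). Mog had 6.51 to 193.4 CPM (median 32.8 CPM) in females and 10.7 to 176.5 CPM (median 35.9 CPM) in males, and Pdgfra 28.5 to 87.0 CPM (median 63.8 CPM) in females and 42.1 to 95.3 CPM (median 65.4 CPM) in males. The ranges of the sexes overlapped in all 3 genes, with the lowest library a female and, for Mbp and Mog, the highest a female too. In edgeR 0 of 31 passed (background 0.0919%) and 0 had an unadjusted p under 0.05 (background 3.81%), and the same counts came from DESeq2 and limma-voom. The smallest p belonged to Pdgfra, with a log2 female over male of -0.08 ± 0.06 (p = 0.187), Opalin (-0.26 ± 0.22, p = 0.228) and Car2 (-0.11 ± 0.10, p = 0.282), each with an edgeR adjusted p of 0.986. The log2 ratio lay below 0 for 20 of 31 genes (background 52.3%).

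The median r between mature myelin and precursor genes was 0.059 in females and -0.262 in males, while within mature myelin it was 0.902 in females and 0.908 in males. The sex difference in the first of these was not tested.

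Levels were also compared between the runs of sheet numbers. Mbp had 529 to 4075 CPM in run 1 (median 913 CPM), 1028 to 7223 CPM in run 2 (median 1782 CPM), 626 to 11016 CPM in run 3 (median 1455 CPM) and 429 to 5895 CPM in run 4 (median 1975 CPM). Myrf had medians of 20.2, 46.5, 43.9 and 38.2 CPM in runs 1 to 4, and Enpp6 medians of 1.64, 2.91, 2.48 and 3.06 CPM. Medians of Olig1 (111, 119, 115 and 112 CPM) and Pdgfra (65.04, 62.8, 67.7 and 62.2 CPM) stayed close together. Run 1 was lowest for the myelin genes, and the ranges of Mbp overlapped between all runs.

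An F-test over the runs passed for 15 of 31 genes in edgeR (background 21.7%) and for 13 in limma-voom, and 24 had an unadjusted p under 0.05 (background 37.8%). They were 11 of 19 mature genes, Myrf, Nkx6-2, Enpp6 and Bcas1, with the smallest adjusted p for Enpp6 (0.00864), Myrf (0.0116), Mag (0.0152) and Trf (0.0155) and 0.0476 for Mbp. Olig1 (0.686), Sox8 (0.841), Gpr17 (0.614), Pdgfra (0.298) and Cspg4 (0.117) did not pass. Marker lists shifted with the runs as well: the summed level of 5 cortical and basolateral genes had medians of 2129, 1619, 1492 and 1271 CPM in runs 1 to 4, that of 6 CeA genes 431, 412, 484 and 598 CPM, and that of the 19 mature genes 1787, 3497, 2776 and 3599 CPM. Their part in the run difference was not tested, and what the runs stand for is not given in the sources used here.

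**Figure D5:**
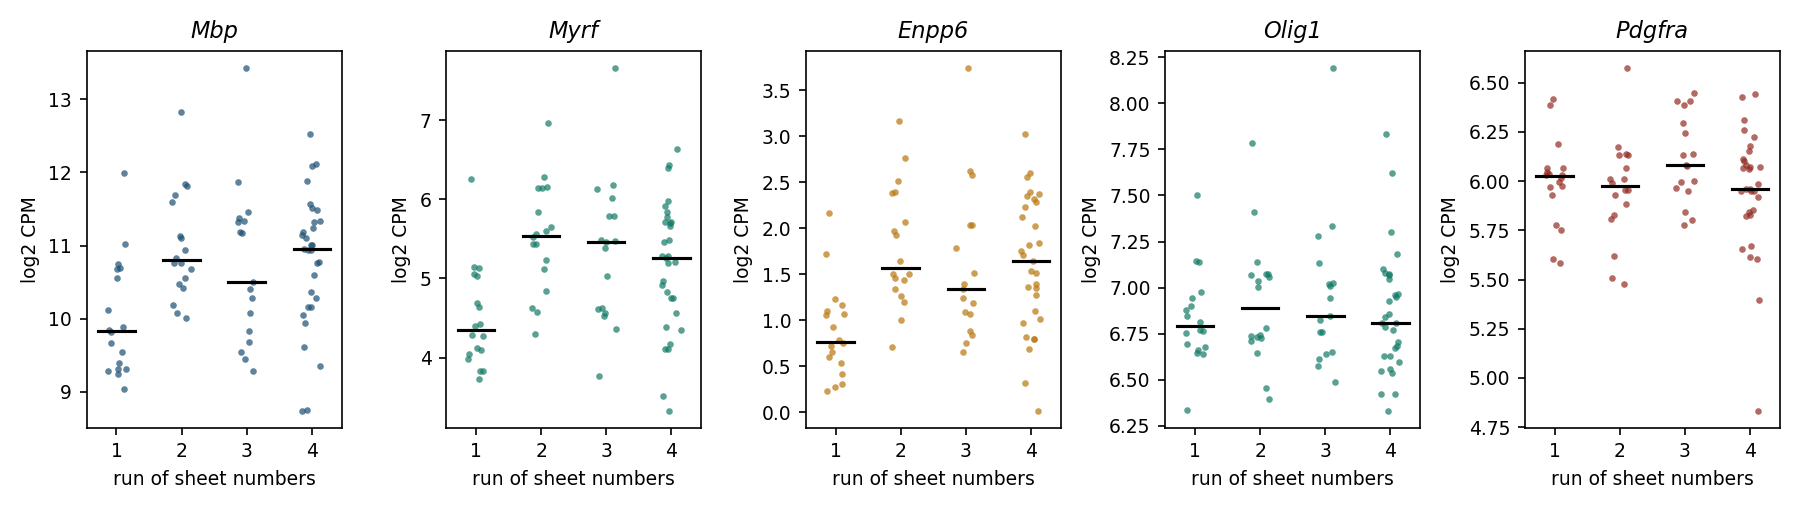
Log2 CPM of Mbp, Myrf, Enpp6, Olig1 and Pdgfra in the 4 runs of sheet numbers, 1 point per animal with the median as a bar. Mbp, Myrf and Enpp6 were lowest in run 1 (medians 913, 20.2 and 1.64 CPM), while medians of Olig1 and Pdgfra stayed level across the runs.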

How the data were processed

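Whole-number read counts per gene, not normalized, were deposited by the authors as 1 table of 43629 genes and 84 libraries. Per the submitters' processing notes, the tools were FastQC, STAR, featureCounts 1.6.0 of Subread, and DESeq2, with build GRCm38 (mm10). The strand setting and annotation release behind the counting are not given in these sources. Libraries were poly(A) selected and stranded, with up to 6 per lane, per the labels' protocols. A further 8 columns (3 of undetermined reads, 5 empty) were not used.

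From the deposited counts, genes were kept by edgeR's filterByExpr by sex (minimum count 10, minimum total 15), leaving 16320. TMM-scaled counts were fitted with edgeR 4.0.16 (quasi-likelihood F-test, robust, R 4.3.3), with p-values adjusted by Benjamini-Hochberg over all genes and a threshold of 0.05. Fits used mean, week 1 and week 13 preference, over both sexes with a term for sex and in each sex, the sex by preference term, females against males, and the runs of sheet numbers. CPM use TMM library sizes and log2 CPM a prior count of 2. SE is the log2 value over the root of F, and 95% intervals are 1.96 SE either way. CPM are counts per library scaled to a fixed total. Correlations used 100000 permutations, two-sided (scipy 1.17.1, numpy 2.4.6, pandas 2.3.3, Python 3.11.15). DESeq2 1.42.0 and limma-voom 3.58.1 were among the alternatives. Some of the edgeR and limma-voom fits were also run on simulated counts. Genes were drawn there independently of each other and animals had no families, so that check does not cover genes that vary together or related animals.

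Depth was 24118965 to 42036566 counts, and the p-values measure the spread between animals. All 31 genes are named; slopes are given in full for genes with an unadjusted p under 0.05 and otherwise for the 3 of smallest p, pairs for the 3 highest, the 3 lowest and 4 set pairs, and outside genes for the 10 highest and 5 lowest; some genes of these lists are not reported here. Olig2 with Gpr17, Pdgfra with Cspg4 and the single libraries described were chosen after their values were seen. Members and lists were chosen with earlier results of these data known.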

Additional observations from a re-analysis of the deposited data

How the results depend on the processing

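No paired analysis was possible because the replicate numbers follow accession order and pair no animals. For the 31 genes, no call on preference or sex changed under any alternative: DESeq2, limma-voom, DESeq2 size factors in edgeR, no filter on low counts, run as a covariate, rank of preference, intake in place of preference, mean preference as a covariate for sex, and leaving out the 2 most extreme drinkers or libraries. Runs taken alone, correlations with preference, and pairs without the 2 farthest animals or within runs were chosen after seeing the data. Of 2945 slopes recomputed, all uncalled, 403 changed sign; by setting, the share was highest in run 4 alone (23 of 31). At most 3 of 31 genes had an unadjusted p under 0.05 in any alternative. The median r between mature myelin and precursor genes, -0.072 over all animals, was 0.059 in females alone, -0.262 in males alone and -0.298 in run 1 alone; the cause was not tested. The median r within mature myelin was 0.884 without the 2 most extreme libraries and 0.893 with sex and run means removed.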
